A study of Lobaria pulmonaria with 11 samples.

Results

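The 100 mycobiont transcripts described here are those whose level varied least among well expressed transcripts, over 11 libraries of the tree lungwort Lobaria pulmonaria, a lichen exposed to ultraviolet-B light (UV-B). They were chosen by their coefficient of variation (CV, the SD divided by the mean) of CPM, which are counts divided by a scaled library size, with the scale set by the trimmed mean of M-values (TMM). Of 15607 listed mycobiont transcripts, 12089 passed the expression filter and 4434 of these had a mean of at least 50 CPM over the 11 libraries. The 100 most abundant at day 0 were omitted, and the 100 with the smallest CV were taken from the 4334 that remained. All 100 members passed the filter on low values, because the rule required a high mean. The files give numeric transcript IDs with no gene names, so members are named by ID and no function is given for any of them.

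In a lichen thallus a fungus (the mycobiont) houses partners that photosynthesize. In this species they are the green alga Symbiochloris reticulata and the cyanobacterium Nostoc. Thalli taken from aspen trunks were dried and stored frozen, then rehydrated and kept wet in a chamber at 15 °C. Photosynthetically active radiation in the chamber was 80 µmol/m2/s. The 3 libraries of day 0 came from thalli that received no UV-B, and the 3 libraries of day 2, the 2 of day 7 and the 3 of day 11 from thalli irradiated daily at 3 W/m2 for 80 min. The daily dose was 14.4 kJ/m2, so that the cumulative dose was 0, 28.8, 100.8 and 158.4 kJ/m2. All groups share the species, the collection and the wet chamber. There were no unirradiated thalli after day 0, so that dose and time spent wet cannot be told apart. The series describes the libraries of a day as biological replicates, without saying whether each came from its own thallus. Mycobiont totals ran from 8680745 to 17626099 counts per library.

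Transcripts with a steady level matter because most measurements of RNA are relative. In RT-qPCR a target is read against reference genes, classically those for actin, tubulin, glyceraldehyde-3-phosphate dehydrogenase or translation elongation factors, which serve cell structure, glycolysis and protein synthesis in nearly every cell. Sequencing counts are relative too: each library is a sample of a fixed number of reads, and a scaling step decides which transcripts count as level. A transcript is therefore steady only with respect to a given scaling, while the ratio between a pair of transcripts in the same library does not depend on it. The fungus makes up most of the thallus, and in lichens it forms the cortex that screens the algal layer from light.

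The members' CV ran from 6.09% to 10.08%, with a median of 9.01%, against a median of 26.2% over the 4434 transcripts with a mean of at least 50 CPM (called eligible below). These values chose the members and describe them. The level in the highest library was 1.22 to 1.46 times that in the lowest, with a median of 1.33, and the median over eligible transcripts was 2.35. All 100 members stayed within a ratio of 1.5 between their highest and lowest library, as did 293 (6.61%) of the eligible transcripts. The boundary of the list was not sharp. Transcript 1062424, ranked 100 and just inside, had a CV of 10.08%, and transcript 1078538, ranked 101 and just outside, had 10.12%.

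**Figure D1:**
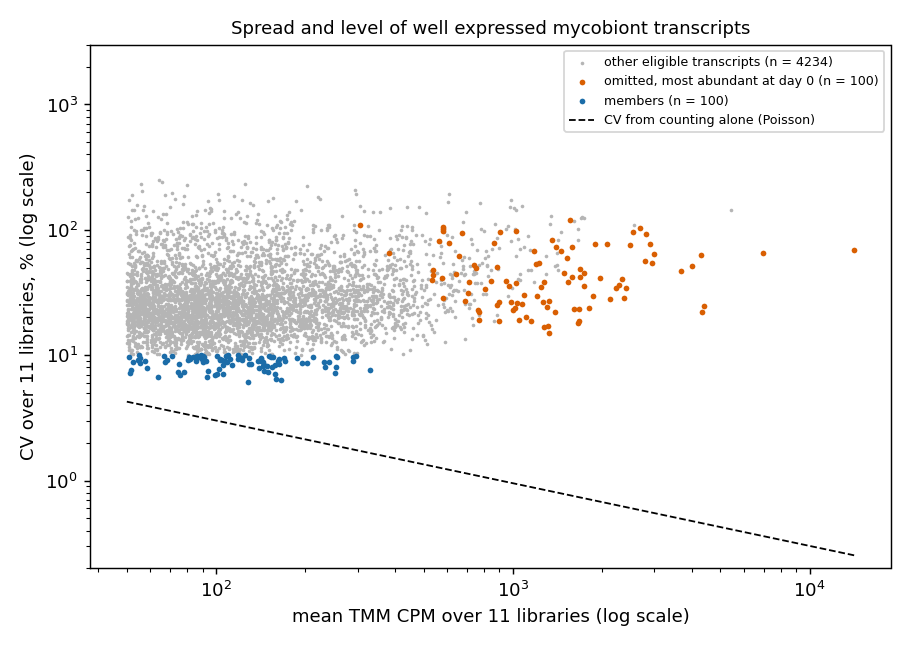
Coefficient of variation over 11 libraries (%, log scale) against the mean TMM CPM (log scale) for each eligible mycobiont transcript. Blue points are the 100 members, orange points the 100 omitted transcripts most abundant at day 0, grey points the other 4234, and the dashed line is the CV that counting alone would give. The members form the lower edge of the cloud at 6.09% to 10.08%, above the counting line and below all omitted transcripts.

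Transcript 1232428 had the smallest CV, 6.09%. Its level was 133, 126 and 139 CPM at day 0, 111, 123 and 129 at day 2, 135 and 126 at day 7, and 122, 134 and 128 at day 11. The values of the 4 days overlapped, and the lowest was day 2 replicate 1. Set against day 0, its log2 fold change came to -0.14 at day 2 (SE 0.12), -0.02 at day 7 (SE 0.13) and -0.05 at day 11 (SE 0.12). Its first place by CV depended on the settings. With DESeq2 size factors its CV was again the smallest, 6.30%. Under a stricter expression filter (a mean of at least 50 counts per library) it was 8.33%, against 6.23% for transcript 1081371. With counts divided by library totals alone it was 18.6%, where the members' median was 15.0%.

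Transcript 1073262 had the smallest ratio between its highest and lowest library, 1.22, at a CV of 6.69%. Its level was 83.3, 86.8 and 95.7 CPM at day 0, 97.6, 88.1 and 98.9 at day 2, 96.2 and 96.8 at day 7, and 85.0, 102 and 93.3 at day 11. Day 0 overlapped days 2 and 11, while both day 7 libraries lay just above the highest of day 0. The other 3 of the 5 smallest CVs belonged to transcripts 1292162 (6.32%, mean 165 CPM), 1081371 (6.50%, mean 160 CPM) and 1175618 (6.66%, mean 63.8 CPM). In these 3, the day means ranged from 155 to 173 CPM, 152 to 167 CPM and 60.3 to 66.4 CPM. Day 2 replicate 1 was the lowest library of 1292162 and 1175618, as it was of 1232428.

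**Figure D2:**
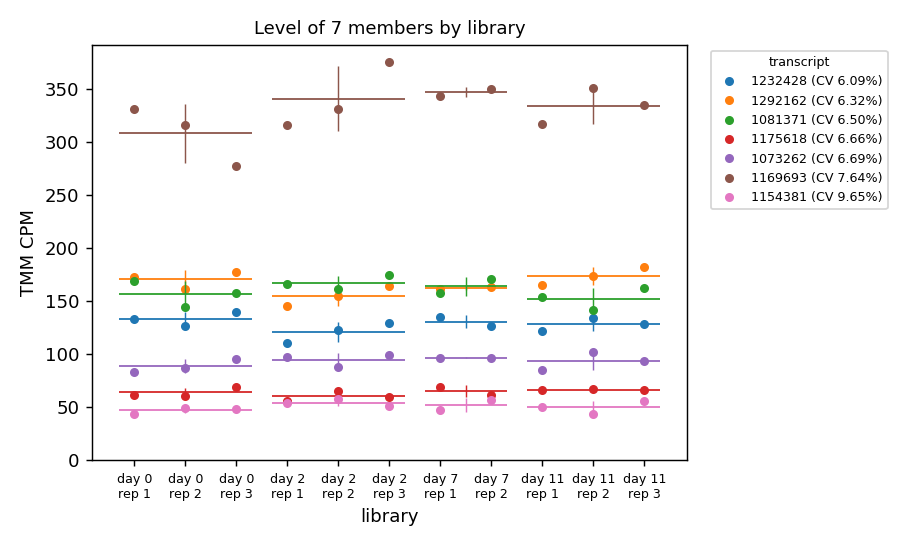
TMM CPM in each of the 11 libraries for the 5 members with the smallest CV and for the members with the highest (1169693) and lowest (1154381) mean level. Points are libraries, horizontal lines the mean of each day and vertical lines its SD over 3 libraries (2 at day 7). Each transcript holds its own level, from about 51 CPM for 1154381 to 331 CPM for 1169693. The days overlap in most cases, with exceptions such as day 7 above day 0 in 1169693 and 1073262.

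The members were of middling abundance. Their mean level ran from 50.8 to 331 CPM with a median of 112 CPM, close to the median of 115 CPM of all eligible transcripts. From 50 to under 100 CPM there were 37 members among 1880 eligible transcripts (1.97%), from 100 to under 200 there were 50 of 1420 (3.52%), and from 200 to under 300 there were 12 of 519 (2.31%). At 300 CPM and above there was 1 of 615 (0.163%). Over these 4 ranges the median CV of the eligible transcripts was 24.3%, 25.4%, 27.7% and 35.0%.

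That 1 member was transcript 1169693. It had 331, 316 and 277 CPM at day 0, 316, 331 and 375 at day 2, 343 and 350 at day 7, and 316, 350 and 334 at day 11. Day 0 replicate 3 was its lowest and day 2 replicate 3 its highest library. Day 0 overlapped days 2 and 11, and both day 7 libraries lay above day 0. The scarcest member, transcript 1154381, had a mean of 50.8 CPM and 328 to 1007 counts per library.

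The omission of the 100 most abundant transcripts of day 0 took no transcript away from the list. Their CV ran from 15.1% to 120%, with a median of 40.1%, and none had a CV as low as that of the last member. Transcript 1093186 came closest at 15.1%. It had 1136, 1368 and 1150 CPM at day 0, 1159, 1262 and 1284 at day 2, 1069 and 1368 at day 7, and 1723, 1475 and 1552 at day 11. All 3 libraries of day 11 lay above the other 8.

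Counting error made up a small part of the spread of most members. With 599 to 3892 counts per library on average, counting alone would give a CV of 1.66% to 4.23%, with a median of 2.85%. This is a median of 10.4% of the variance of a member, with a range of 3.16% to 33.7%. For eligible transcripts the median was 1.08% of the variance. With the counting part removed, the median of the members' CV was 8.55% in place of 9.01%. The counting part covers sampling of reads and not the preparation of libraries.

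The members' spread within days was not smaller than that between the day means, which include it. The mean of the members' CVs within the 4 days had a median of 7.33%, and the CV of the 4 day means a median of 5.94%. In eligible transcripts these medians were 16.2% and 21.8%. Within single days, taken from day 0 to day 11, the median CV of the members was 6.91%, 8.07%, 5.45% and 6.73%. For eligible transcripts it was 14.9%, 18.1%, 12.8% and 14.7%, with the highest value also at day 2. Day 7 has 2 libraries, so its value is the least certain.

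Individual libraries left a mark on the list. Day 2 replicate 1 was the highest library for 27 members and the lowest for 11, and day 0 replicate 2 was the lowest for 22 and the highest for 4. For no other library did either number exceed 14. The members' median deviation from their own mean was -0.10 on the log2 scale in day 0 replicate 2, 0.04 in day 2 replicate 1, and between -0.03 and 0.04 in the other 9. Within 10% of their own mean lay 63 members in day 0 replicate 2, 59 in day 2 replicate 1, and 75 to 85 in the others. In eligible transcripts the shares were 20.3% and 20.9% in these 2 libraries and 20.5% to 42.5% in the others.

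No member was called by the quasi-likelihood test of edgeR at a Benjamini-Hochberg adjusted p under 0.05 on day 2, 7 or 11 against day 0. Over all 12089 tested transcripts 13.1%, 17.5% and 29.0% were called on these days, and over the eligible ones 20.3%, 24.4% and 37.1%. The rule chose members on the same libraries, and nothing is read from this count. At an unadjusted p under 0.05 there were 3 members at day 2 (84469, 1179661 and 1209886), 2 at day 7 (1258228 and 1270904) and 1 at day 11 (84469), where all tested transcripts had 30.5%, 34.2% and 41.9%. DESeq2 called 0 members at day 2, 2 at day 7 (1258228 and 1270904) and 1 at day 11 (84469), beside 21.9%, 27.4% and 35.2% of all transcripts with an adjusted p. With a stricter expression filter edgeR called 84469 at days 2 and 11 and 1270904 at day 7, beside 15.9%, 19.7% and 31.0% of its tested transcripts on days 2, 7 and 11. Of these, 1209886, 1258228 and 1270904 are named because of these calls.

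The members' log2 fold changes lay between -0.27 and 0.29 at day 2, -0.34 and 0.31 at day 7, and -0.27 and 0.26 at day 11. Their medians were 0.07, 0.08 and 0.07, with a median SE of 0.13, 0.15 and 0.13. The 95% interval of the fold change lay within 1.5-fold in both directions for all 100 members at days 2 and 11 and for 97 at day 7. The same held for 19.3%, 12.5% and 16.3% of the eligible transcripts on days 2, 7 and 11. The intervals use an error estimated from these libraries, and the members were chosen for small spread in them.

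Within this narrow range, members had no common course over the days on TMM values. On library totals, given below, all 100 were lower than at day 0 on each later day. The day with the highest mean was day 0 for 11 members, day 2 for 33, day 7 for 35 and day 11 for 21. The day with the lowest mean was day 0 for 41, day 2 for 23, day 7 for 19 and day 11 for 17. In eligible transcripts the highest mean fell on days 0, 2, 7 and 11 in 15.4%, 32.9%, 23.5% and 28.2%. The lowest fell on these days in 53.6%, 16.9%, 16.6% and 12.9%. The day 7 mean rests on 2 libraries. Pairs of members correlated over the 11 libraries with a median Pearson r of 0.09 and a range of -0.92 to 0.89, where pairs of eligible transcripts had a median of 0.11. The points of these correlations share their libraries and scaling.

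A few members did separate day 0 from the irradiated libraries. In 2 members, 1270904 and 84469, all 8 irradiated libraries were lower than all 3 of day 0, which held for 3.29% of eligible transcripts. In 3, 1258228, 1179661 and 1087571, all 8 were higher, against 22.0%. Transcript 84469, which had the largest negative log2 fold change at day 11 (-0.27, SE 0.11), had 120, 110 and 118 CPM at day 0 and 91.3, 98.9 and 98.0 at day 2. At day 7 it had 106 and 99.2 and at day 11 91.3, 99.3 and 98.3. Transcript 1179661, with the largest positive value at day 11 (0.26, SE 0.12), had 46.9, 47.4 and 52.6 CPM at day 0 and 56.6, 61.8 and 61.4 at day 2. It had 54.3 and 54.3 at day 7 and 54.6, 61.0 and 60.0 at day 11. In both, the gap between the nearest libraries of the 2 sides was under 5 CPM.

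The members, chosen on TMM values, were less steady on library totals, though still steadier than most eligible transcripts. TMM estimates a factor for each library from the bulk of its transcripts after trimming extremes. This factor was 1.16, 1.26 and 1.27 before irradiation and 0.864 to 1.01 in the 8 irradiated libraries. When counts were divided by library totals alone, the log2 fold change of all 100 members was below 0 at day 2, at day 7 and at day 11. On these days it was below 0 in 64.4%, 54.3% and 59.5% of eligible transcripts. Members were chosen to be level on TMM values, so a change of scaling shifts their fold changes together. The members' median was -0.36, -0.25 and -0.38 on these days, where TMM gave 0.07, 0.08 and 0.07. In 66 members all 8 irradiated libraries were then lower than all 3 of day 0, against 15.1% of eligible transcripts, and in none were they higher, against 6.47%.

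With library totals edgeR called 33 members lower at day 2, 6 at day 7 and 47 at day 11, and none higher. Of all tested transcripts 18.3%, 14.0% and 29.2% were then called lower on these days and 3.85%, 4.43% and 5.99% higher. The members' median CV was 15.0% on this scale, against 25.9% for transcripts with a mean of at least 50 CPM there. A list of 100 chosen by the same rule on library totals shared 3 transcripts with the members: 1179661, 1221069 and 1073819, the last named because of this overlap. Transcript 1179661 had 54.5, 59.7 and 66.5 CPM of the library total at day 0, 49.3, 60.7 and 55.4 at day 2, 54.7 and 51.5 at day 7, and 49.0, 52.5 and 56.8 at day 11. Day 0 overlapped each later day on that scale, whereas under TMM it lay below all of them. Size factors of DESeq2 gave a list with 97 of the 100 members and a median CV of 9.09% for the members.

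**Figure D3:**
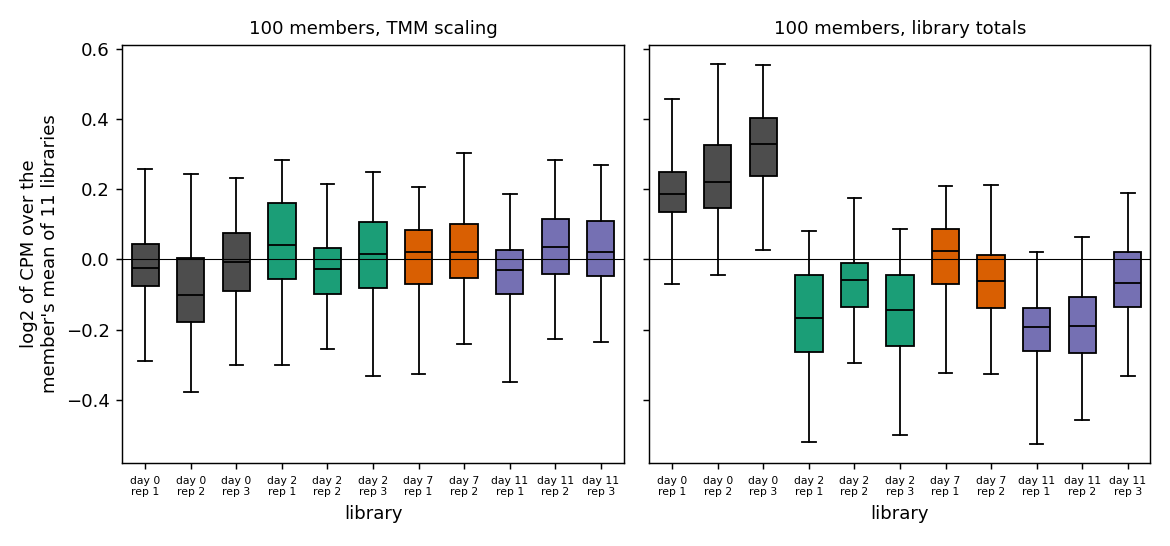
log2 of CPM over the member's own mean of 11 libraries, for 100 members in each library, scaled by TMM (left) or by library totals (right). Boxes show the quartiles and median, whiskers the lowest and highest member, and colours the day. With TMM the library medians lie between -0.10 and 0.04, and with library totals the 3 day 0 medians lie at 0.19 to 0.33 and the 8 others at -0.19 to 0.02.

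The same difference appears when the members are summed as a share of each library's counts, which is the scale of library totals. Before irradiation the members together held 1.48%, 1.52% and 1.61% of the mycobiont counts. Their share was 1.17%, 1.23% and 1.17% on day 2, 1.31% and 1.25% on day 7, and 1.13%, 1.15% and 1.24% on day 11. In the same order of days the means were 1.54% ± 0.0649 (SD, n = 3), 1.19% ± 0.0343 (n = 3), 1.28% ± 0.0406 (n = 2) and 1.17% ± 0.0612 (n = 3). All 3 day 0 libraries lay above all 8 others. Among these, both day 7 libraries lay above those of days 2 and 11, which overlapped. In RNA from whole thalli, less RNA per cell and fewer cells making a transcript cannot be told apart. No standard of known amount is named in the labels, and which scaling reflects RNA per cell was not tested.

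**Figure D4:**
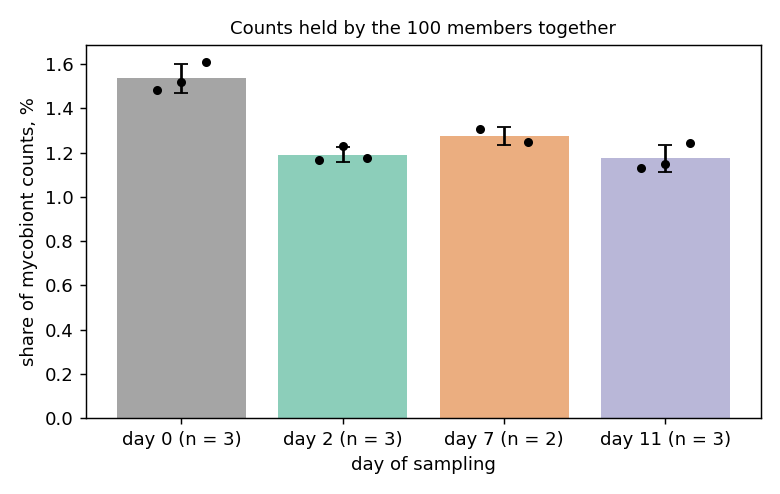
Share of the mycobiont counts of a library held by the 100 members together (%), by day of sampling. Bars are means, error bars SDs and points libraries. The 3 day 0 libraries hold 1.48% to 1.61% and the 8 irradiated libraries 1.13% to 1.31%.

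The members' fold changes were also set against the middle of the eligible transcripts, which removes any shift that a scaling gives to all transcripts alike. Under TMM the median log2 fold change of eligible transcripts was 0.24, 0.27 and 0.30 on days 2, 7 and 11, and under library totals it was -0.17, -0.06 and -0.14. The members' fold change minus that median had a median of -0.18, -0.19 and -0.24 under TMM, and was above 0 in some members at days 2 and 7. Over all 12089 tested transcripts, scarce ones included, the TMM median was -0.03, -0.02 and -0.02, and that of library totals -0.45, -0.35 and -0.47. Under TMM the members lay near the middle of all tested transcripts and below the middle of the eligible ones. TMM centres the bulk of transcripts near 0, and the rule chose members that were level on TMM values. Their position follows from this choice, and nothing is read from it.

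Ratios between members do not depend on scaling, although members chosen for small CVs over these libraries must also have steady ratios, so the values describe the list. The SD over the 11 libraries of the log2 ratio of a pair of members had a median of 0.17 and was at most 0.28 in the 4950 pairs, against a median of 0.60 in pairs of eligible transcripts. A further measure, the M value used to rank reference genes, is the mean SD of the log2 ratio of a transcript to every other eligible transcript. The members had M from 0.53 to 0.59 with a median of 0.55, against a median of 0.66 for eligible transcripts. By M, 27 members were among the 100 steadiest eligible transcripts and 79 among the first 500. Their ranks ran from 1 to 1100 of 4434, with a median of 223.

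Transcript 1221069 had the smallest M of all 4434 eligible transcripts, although its CV, 9.84%, put it at rank 88 by the rule. Its level was 291, 244 and 250 CPM at day 0, 320, 291 and 326 at day 2, 322 and 285 at day 7, and 295, 312 and 330 at day 11. Day 0 replicate 2 was its lowest library, and day 0 replicate 1 overlapped days 2 and 7. All 3 libraries of day 11 lay above those of day 0. Transcript 84469 had the largest M of the members, 0.59. The members with the smallest CV and the smallest M were therefore different transcripts: 1232428, first by CV, ranked 447 by M.

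How far steadiness carries over to a library that took no part in the choice was measured by choosing 100 transcripts again without that library. The absolute log2 ratio of the left-out library to the mean of the others had a median of 0.09 to 0.23 over the 11 libraries, with a middle value of 0.13. For eligible transcripts it was 0.20 to 0.43, with a middle value of 0.27. Within 20% of the mean of the other libraries lay 59 to 98 of the 100 transcripts, against 37.0% to 66.5% of the eligible ones. The share was higher for the chosen list in each of the 11 cases. In a left-out library 0 to 3 of the 100 chosen transcripts were off by more than 1.5-fold, against 14.5% to 38.6% of eligible transcripts. Over all 11 lists of 100 together this came to 11 transcripts. The left-out library had been scaled together with the others.

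The least predictable library was day 2 replicate 1. The 100 transcripts chosen without it had a median absolute log2 ratio of 0.23 there, and 59 lay within 20%. Their signed median was 0.15, against 0.04 for eligible transcripts. Without day 0 replicate 2 the signed median was -0.20, against -0.31 for eligible transcripts, and 83 lay within 20%. These 2 libraries also stood out in the counts of highest and lowest members.

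A list chosen without any day 0 library had fewer transcripts within 20% in the left-out day than lists chosen without day 2, 7 or 11. The 100 transcripts steadiest over the 8 irradiated libraries had CVs of at most 7.69% there, and 33 of them were members. On TMM values their median log2 ratio at day 0 to the irradiated mean was -0.34, close to the -0.33 of all eligible transcripts. At day 0, 45 lay within 20%, against 37.2% of eligible transcripts. The direction of such a shift depends on the scaling. The median log2 fold change of eligible transcripts against day 0 was above 0 under TMM and below 0 on library totals. Leaving out whole days was not repeated on library totals. Of these 100, edgeR called 31 at day 2, 32 at day 7 and 48 at day 11 against day 0, beside 20.3%, 24.4% and 37.1% of eligible transcripts. These transcripts were chosen for small spread in the later libraries, and a small spread favours calls. The call counts cannot be separated from this choice, and nothing is read from them.

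The lists chosen without day 7 or day 11 behaved differently. Without day 7, 94 of the 100 chosen transcripts lay within 20% at day 7 (55.8% of eligible transcripts) and 1 was called there against day 0. The share called at day 7 was 17.5% over all tested transcripts and 24.4% over eligible ones. Without day 11, 87 lay within 20% (51.6%) and 6 were called at day 11, where these shares were 29.0% and 37.1%. Without day 2, 76 lay within 20% (51.7%) and 13 were called at day 2, where the share over all tested transcripts was 13.1% and over eligible ones 20.3%. These calls share the day 0 libraries on which the lists were chosen. The number of members chosen again was 33, 48, 70 and 62 without days 0, 2, 7 and 11.

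**Figure D5:**
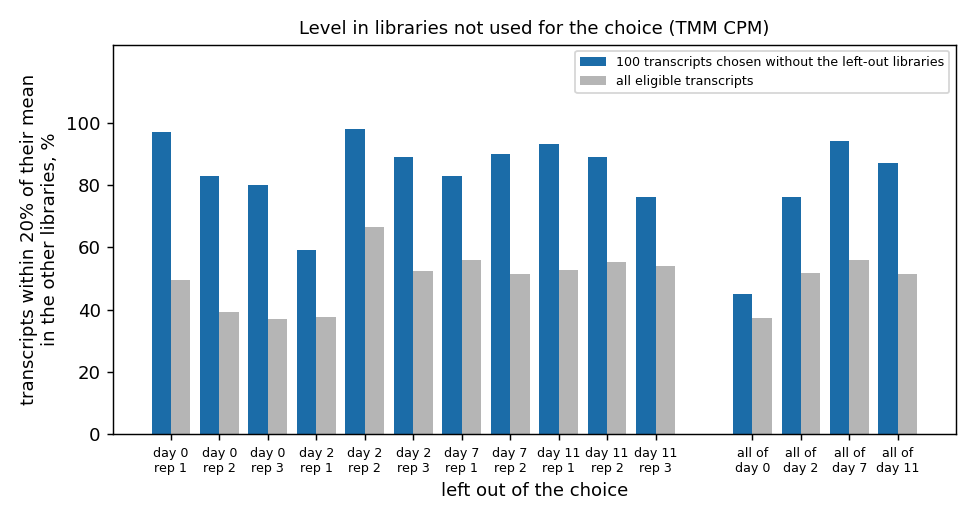
Transcripts within 20% of their mean TMM CPM in the other libraries (%), in a library or a whole day that was left out of the choice. Blue bars are the 100 chosen transcripts and grey bars all eligible transcripts. Without single libraries the chosen lists reach 59% to 98%, and without all of day 0 they reach 45% beside 37.2%.

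Single libraries also moved the membership. Without each library in turn 63 to 87 of the 100 members were chosen again, with the lowest number without day 2 replicate 1. In all 11 of these lists 52 members appeared, and in at least 9 of them 63 did. The other members depended on which libraries were present.

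Other definitions of steadiness also gave partly other lists. Ranking by the SD of log2 CPM kept 94 members, but ranking by the mean of the within-day CVs kept 28. Ranking by M kept 27. A minimum mean of 20 CPM kept 79 and one of 100 CPM kept 63.

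For comparison, the same rule was applied to the photobiont, with 938418 to 2677845 counts per library. Its 100 steadiest transcripts had CVs of 6.57% to 11.1% with a median of 10.0%, close to the mycobiont's 9.01%. At its lower depth counting alone would give a median CV of 8.49%, and with that part removed the median was 4.27%, against 8.55% in the mycobiont. These remainders are not directly comparable, because both lists were chosen for small observed CVs. Such a choice favours transcripts whose counting error happened to be low, which lowers the remainder more where counting is the larger part. From day 0 to day 11 in order, the photobiont list held 1.29% ± 0.0169, 1.23% ± 0.048, 1.25% ± 0.0429 and 1.25% ± 0.0103 of the counts (SD over 3, 3, 2 and 3 libraries). Its TMM factors lay between 0.960 and 1.04, and a photobiont list chosen on library totals shared 78 of 100 transcripts, where the mycobiont lists shared 3. The difference between the partners was not tested.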

How the data were processed

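Counts per transcript and library were deposited by the authors in 1 table per partner, as whole numbers. Polyadenylated RNA was sequenced as directional 50-base single-end reads, per the labels' protocols. Tools listed in the submitters' processing notes are HTSeq 0.5.4, HISAT2, edgeR, Trimmomatic 0.39 and FastQC 0.11.8. Genome builds, gene models and the strand setting were not given in the sources used here. Overlapping transcripts and near-identical copies therefore remain uncertain.

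The filter by day (filterByExpr), TMM scaling and the quasi-likelihood F test (robust, all 11 libraries in 1 fit with day as group, Benjamini-Hochberg adjustment over all tested transcripts) used edgeR 4.0.16 in R 4.3.3. DESeq2 1.42.0 served as an alternative. The SE is the absolute log2 fold change divided by the square root of F. The counting CV follows a Poisson model at the library depths. Log2 ratios for M used counts plus 0.5. The edgeR step and the choice of steady transcripts were tested on simulated data. Steady transcripts planted there varied by counting error alone, which is a small part of the spread of most members. The simulation therefore does not show how well the choice works on these data. A deposited table of read totals was not used.

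The members and the rule were chosen with earlier results of these data known. Transcripts named by rule are the 5 with the smallest CV, the highest and lowest mean, ranks 100 and 101, the extremes of the day 11 fold change, the smallest M, and the omitted transcript with the smallest CV.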

Additional observations from a re-analysis of the deposited data

How the results depend on the processing

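The scaling had the largest effect on the list of those settings tried. With library totals 3 of the 100 members were chosen again, and the median CV of all 100 was 15.0%. Of the 100, 33, 6 and 47 were called lower on days 2, 7 and 11, beside 18.3%, 14.0% and 29.2% of all tested transcripts. In all, 2679 transcripts were called at day 2 in place of 1579. The membership was also 33, 48 and 62 of 100 without all libraries of days 0, 2 and 11, 28 by within-day CVs, 27 by M and 63 at a minimum of 100 CPM. It was 70 with the stricter expression filter and 94 with no expression filter. Without each library in turn it ran from 63 to 87, the members' median CV from 8.59% to 9.14%, and their median M from 0.540 to 0.567. The median M was 0.506 without day 0 and 0.539 without day 2.

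The count of called members was 1 on each of the 3 days with the stricter filter, beside 15.9%, 19.7% and 31.0% of its tested transcripts. With DESeq2's test it was 0, 2 and 1 on days 2, 7 and 11, beside 21.9%, 27.4% and 35.2% of transcripts with an adjusted p. That test called 2577 of 11771 transcripts at day 2. Leaving out single libraries gave 0 members on each day. Over all transcripts it gave 593 to 1518 calls at day 2, 585 to 2365 at day 7 and 2255 to 3721 at day 11. Of the libraries that moved a count by over 1.5 times, day 0 replicate 1 gave 958 at day 2 when left out. Day 0 replicate 2 gave 593, 1141 and 2255 on days 2, 7 and 11, and day 0 replicate 3 gave 713, 1307 and 2304. Leaving out day 2 replicate 3 gave 668 at day 2. Leaving out day 7 replicate 1 gave 983 at day 7, and replicate 2 gave 585. The cause of these changes was not tested.

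The labels give replicates the same numbers on each day. Deviations from the day means correlated above 0.1 in 4 of 15 same-numbered pairs, and 5 of 11 libraries correlated best with their own number. No rate for unpaired samples was computed, and the 2 deviations of day 7 are opposite by construction. This check therefore cannot decide whether the numbers pair samples, and the main fit used no pairing. With a replicate block 1055, 1317 and 2791 transcripts were called on days 2, 7 and 11, and no member.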
